A study of Mus musculus with 23 samples.

Results

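The acute-phase serum proteins examined here are 9 genes of mouse liver, namely Saa1, Saa2, Saa3, Orm2, Lcn2, Orm1, Hp, Crp and Apcs, of 18193 genes with a probe set assigned to them alone. They were chosen by gene symbol, and 10 probe sets were assigned to them, 2 of these to Saa1. For description, 5 were grouped as strongly inducible (Saa1, Saa2, Saa3, Orm2 and Lcn2) and 4 as weakly inducible (Orm1, Hp, Crp and Apcs), a grouping made with earlier results of these data known. All 9 passed the filter on low signal, together with 13826 genes in all. RNA was measured in livers of male C3H mice on 23 Affymetrix expression arrays in 4 groups: Ctnnb1 knockout on phenobarbital (n = 7), Ctnnb1 knockout without phenobarbital (n = 7), wild type on phenobarbital (n = 4) and wild type without phenobarbital (n = 5). The knockout lacks the stretch of Ctnnb1, the gene of beta-catenin, between loxP sites around exons 3 and 6. Cre is driven by the promoter of albumin, a hepatocyte marker, and which other liver cell types keep Ctnnb1 was not tested. Phenobarbital was given at 0.05% in the diet for 12 weeks, and controls of both genotypes had a diet without it, with water named as their vehicle. Ages and the number of animals behind a sample were not stated, so each p-value reflects only how far these samples spread, which may be technical.

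The acute-phase response is the change in the blood proteins made by hepatocytes after infection or tissue injury. Interleukin 6 acts through its receptor and STAT3, interleukin 1 and tumour necrosis factor act through NF-kappaB, and C/EBP factors bind many of the responding promoters. In mice the serum amyloid A proteins are leading reactants, and amyloid P component (Apcs) is also known as a reactant, although it stands here among the weakly inducible genes. C-reactive protein (Crp), the leading reactant in humans, responds little in mice.

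Sequences of the promoters are shown because acute-phase genes are known targets of those factors and because Saa1 and Saa2 are near-identical copies. RefSeq promoters of build GRCm38.p6, from 250 bases before to 50 bases after the start of the gene, were available for 7 of the 9 genes. The 6 printed below are from Saa1 at chr7:46742931-46743230 on the minus strand, Saa2 at chr7:46751583-46751882 on the plus strand, Saa3 at chr7:46715627-46715926 on the minus strand, Orm2 at chr4:63362199-63362498 on the plus strand, Lcn2 at chr2:32387690-32387989 on the minus strand, and Crp at chr1:172697806-172698105 on the plus strand. Each is given 5′ to 3′ in the direction of the gene, and capitals mark matches to the C/EBP motif TTNNGNAA on either strand.
Saa1: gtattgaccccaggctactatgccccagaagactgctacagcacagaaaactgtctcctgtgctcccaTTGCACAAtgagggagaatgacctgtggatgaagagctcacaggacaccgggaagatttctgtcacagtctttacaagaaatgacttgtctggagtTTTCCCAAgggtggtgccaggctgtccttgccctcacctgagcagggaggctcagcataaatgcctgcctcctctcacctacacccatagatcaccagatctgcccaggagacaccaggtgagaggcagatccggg
Saa2: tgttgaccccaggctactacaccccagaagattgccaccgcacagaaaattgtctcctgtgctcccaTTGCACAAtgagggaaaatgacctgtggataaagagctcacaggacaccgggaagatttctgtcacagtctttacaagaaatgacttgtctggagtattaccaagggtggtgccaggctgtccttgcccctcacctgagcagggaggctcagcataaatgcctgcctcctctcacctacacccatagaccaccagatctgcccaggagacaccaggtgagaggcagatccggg
Saa3: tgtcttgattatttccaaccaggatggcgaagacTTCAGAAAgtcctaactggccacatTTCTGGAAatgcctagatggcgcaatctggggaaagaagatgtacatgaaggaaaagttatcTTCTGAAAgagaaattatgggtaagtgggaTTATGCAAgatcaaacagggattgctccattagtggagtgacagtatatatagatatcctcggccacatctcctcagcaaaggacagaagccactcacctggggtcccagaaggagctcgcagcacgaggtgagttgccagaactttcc
Orm2: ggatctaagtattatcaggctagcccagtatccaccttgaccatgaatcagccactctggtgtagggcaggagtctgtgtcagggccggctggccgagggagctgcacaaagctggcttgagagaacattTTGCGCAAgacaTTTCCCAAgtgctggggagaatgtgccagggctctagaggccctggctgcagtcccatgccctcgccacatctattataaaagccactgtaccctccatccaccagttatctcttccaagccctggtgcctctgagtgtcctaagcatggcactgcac
Lcn2: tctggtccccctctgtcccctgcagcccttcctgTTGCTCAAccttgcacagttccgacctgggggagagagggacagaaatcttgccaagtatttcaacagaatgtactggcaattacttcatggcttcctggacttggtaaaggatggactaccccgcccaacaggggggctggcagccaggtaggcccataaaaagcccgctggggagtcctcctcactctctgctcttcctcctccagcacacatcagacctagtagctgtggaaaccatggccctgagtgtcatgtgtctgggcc
Crp: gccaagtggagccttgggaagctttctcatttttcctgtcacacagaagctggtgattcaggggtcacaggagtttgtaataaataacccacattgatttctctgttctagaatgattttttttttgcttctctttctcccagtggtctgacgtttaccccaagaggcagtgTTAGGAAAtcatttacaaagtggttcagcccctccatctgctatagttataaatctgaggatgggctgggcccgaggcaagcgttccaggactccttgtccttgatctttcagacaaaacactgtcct

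The C/EBP motif was found in 6 of the 7 member promoters, those printed, and not in that of Apcs. It was found in 40.7% of all 32851 promoters of the same length. Saa3 had 4 matches, starting at positions -216, -191, -129 and -99 relative to the start of the gene. Saa1 had matches at -182 and -86, and Saa2 had a match at -183 with the same letters as that of Saa1 at -182, TTGCACAA. Orm2 had matches at -120 and -108, Lcn2 at -216 and Crp at -78. The promoters of Saa1 and Saa2 were 95.3% identical over 301 aligned positions, whereas the other pairs among the 7 member promoters were 46.7% to 54.2% identical. The STAT motif TTCNNNGAA, present in 8.3% of promoters, was matched only in that of Apcs, at -244, and the NF-kappaB motif, present in 4.5%, in none of the 7. No match to 1 motif overlapped a match to another.

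Signals are the authors' log2 values per probe set, and no level of one gene is set against that of another, since probe sets differ in their response. Glul, a beta-catenin target of pericentral hepatocytes, had signals of 7.68 to 9.30 in knockout livers on phenobarbital and 8.07 to 9.87 in knockout livers without it, against 11.54 to 11.78 in wild type on phenobarbital and 12.13 to 12.47 in wild type without it. The 3 probe sets of Ctnnb1 itself did not separate the genotypes, and which exons they cover was not given, so that they check nothing. Cyp2b10, the classical phenobarbital target, lay at 12.51 to 12.97 in knockout livers on phenobarbital against 7.76 to 10.62 in knockout livers without it. In wild type it lay at 12.58 to 12.70 on phenobarbital against 5.22 to 6.22 without it. Replicates 6 and 7 of the knockout livers without phenobarbital stood apart, with estimated array weights of 0.324 and 0.210, while the other 21 arrays had weights from 0.540 to 2.21. Where leaving out these 2 arrays changed the call of a gene named here, the value without them is given beside the result. The same holds where a change of the 5 strongly inducible genes moved by over 1.5 times. Changes of the 4 weakly inducible genes that moved as much are not all given. In the fit without the 2 arrays, 2220 of 13778 genes were called higher and 1474 lower in the knockout under phenobarbital. Without phenobarbital 1284 were called higher and 784 lower. List counts without these arrays stand against these numbers. The hepatocyte marker albumin (Alb) lay between 14.67 and 14.82 on every array.

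Lcn2 encodes lipocalin 2, a protein that withholds iron from bacteria by binding their siderophores. It ranged from 5.83 to 12.37 with a median of 10.68 in knockout livers on phenobarbital, and from 5.05 to 13.41 with a median of 10.90 in knockout livers without it. Wild-type livers on phenobarbital had signals of 6.11, 5.94, 5.32 and 6.68, and those without it 8.86, 6.29, 4.82, 5.14 and 5.70. Knockout livers without phenobarbital fell into 2 sets: replicates 1, 2, 6 and 7 had 10.90, 12.50, 13.41 and 13.24, and replicates 3, 4 and 5 had 5.38, 5.05 and 5.92, within the wild-type range. In knockout livers on phenobarbital, replicates 3, 4, 5 and 7 lay between 10.68 and 12.37, and replicates 1, 2 and 6 between 5.83 and 7.89. The range within the knockout livers without phenobarbital spanned a 329-fold difference in signal, and a 176-fold difference without replicates 6 and 7, the arrays of low weight. With and without them, 1 of the genes tested had a larger SD in that group.

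Saa3, a serum amyloid A made in mice by liver and by macrophages and fat cells, had a similar division. It ranged from 7.77 to 12.24 with a median of 8.35 in knockout livers on phenobarbital, and from 7.35 to 13.74 with a median of 11.78 in knockout livers without it. The signals were 7.68, 6.90, 6.87 and 7.64 in wild type on phenobarbital, and 9.76, 7.85, 7.25, 7.36 and 8.01 in wild type without it. Without phenobarbital, replicates 1, 2, 6 and 7 of the knockout lay at 11.78 to 13.74 and the other 3 at 7.35 to 7.96, with no array in between. On phenobarbital, replicates 4, 5 and 7 lay at 11.53 to 12.24, while replicate 3, among the high arrays for Lcn2, had a Saa3 signal of 8.04.

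Saa1 and Saa2 encode the serum amyloid A proteins that hepatocytes release into blood bound to high-density lipoprotein. Saa1 ranged from 11.97 to 14.10 with a median of 13.61 in knockout livers on phenobarbital, and from 11.83 to 14.13 with a median of 13.85 in knockout livers without it. Wild-type livers on phenobarbital had Saa1 signals of 10.18, 10.27, 9.61 and 10.45, and those without it 13.81, 12.30, 10.55, 10.49 and 11.93. All 4 wild-type livers on phenobarbital lay below every other array, while the wild-type livers without it overlapped the knockout.

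Saa2 ranged from 9.65 to 14.18 with a median of 12.39 in knockout livers on phenobarbital, and from 9.63 to 14.14 with a median of 13.11 in knockout livers without it. Wild-type livers on phenobarbital had 7.89, 8.03, 7.49 and 8.55, and those without it 13.07, 9.95, 8.43, 8.03 and 9.68. The high arrays were those of Lcn2: replicates 1, 2, 6 and 7 of the knockout without phenobarbital had Saa2 signals of 13.11 to 14.14, against 9.63 to 9.78 in replicates 3, 4 and 5. Saa1 and Saa2 cannot be fully told apart. The Saa2 probe set is of a type whose probes can match related transcripts, and the second Saa1 probe set carries an accession that RefSeq pairs with Saa2. That second probe set minus the one used for Saa1 was between -0.42 and 0.16 on the log2 scale over the 23 arrays. The highest Saa1 and Saa2 signals, 14.13 and 14.18, were close to the highest signal of any probe set, which was 14.79 to 14.92 per array, and whether they were saturated was not tested.

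Orm2 encodes an orosomucoid, a plasma carrier of small basic molecules. It ranged from 7.82 to 12.32 with a median of 10.96 in knockout livers on phenobarbital, and from 6.81 to 13.04 with a median of 11.45 in knockout livers without it. The signals were 9.27, 9.23, 9.33 and 9.15 in wild type on phenobarbital, and 10.51, 7.49, 6.24, 6.77 and 8.17 in wild type without it. The 4 wild-type livers on phenobarbital lay within 0.18 of one another, above 4 of the 5 wild-type livers without it and below replicate 1 of that group. In the knockout without phenobarbital the same 4 replicates were high as for Lcn2, at 11.45 to 13.04 against 6.81 to 7.63 in the other 3.

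**Figure D1:**
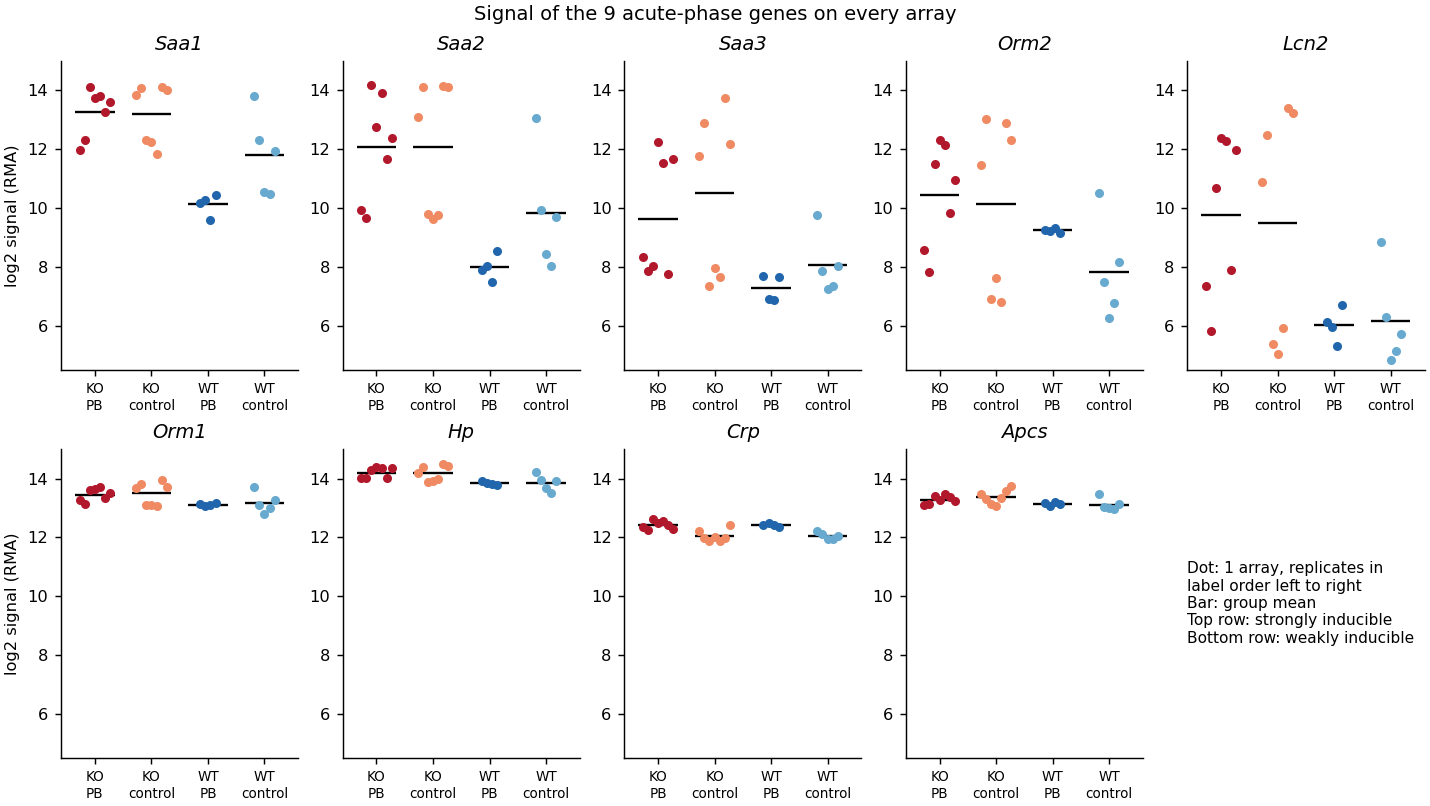
Log2 signal (vertical axis) of the 9 genes on each array, in 4 groups along the horizontal axis, with a dot per array and a bar at the group mean. The strongly inducible genes in the top row split the knockout controls into high and low arrays, with Lcn2 at 10.90 to 13.41 or 5.05 to 5.92. The weakly inducible genes in the bottom row stay above 11.88 on every array.

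Among the weakly inducible genes, Orm1, the paralogue of Orm2 with a high basal level in mouse liver, had small differences that followed the same arrays. Its signal ranged from 13.13 to 13.71 with a median of 13.49 in knockout livers on phenobarbital, and from 13.05 to 13.97 with a median of 13.69 in knockout livers without it. Wild-type livers had 13.12, 13.08, 13.09 and 13.16 on phenobarbital, and 13.70, 13.11, 12.78, 13.01 and 13.28 without it. Replicates 1, 2, 6 and 7 of the knockout without phenobarbital had 13.69 to 13.97, and replicates 3, 4 and 5 had 13.05 to 13.11.

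Hp encodes haptoglobin, which binds free haemoglobin in plasma. It ranged from 14.01 to 14.40 with a median of 14.28 in knockout livers on phenobarbital, and from 13.89 to 14.50 with a median of 14.20 in knockout livers without it. The signals were 13.93, 13.84, 13.82 and 13.77 in wild type on phenobarbital, and 14.23, 13.95, 13.69, 13.51 and 13.91 in wild type without it. Every knockout liver on phenobarbital lay above every wild-type liver on phenobarbital, whereas the groups without phenobarbital overlapped. The Hp signal was also close to the highest per array, and saturation was not tested.

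Apcs encodes serum amyloid P component, a pentraxin that binds amyloid fibrils and nuclear debris. It ranged from 13.11 to 13.47 with a median of 13.25 in knockout livers on phenobarbital, and from 13.08 to 13.75 with a median of 13.35 in knockout livers without it. Wild-type livers had 13.17, 13.05, 13.19 and 13.12 on phenobarbital, and 13.46, 13.03, 13.00, 12.95 and 13.12 without it. The ranges of all 4 groups overlapped, and the widest range within a group was 0.66, in the knockout without phenobarbital.

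Crp, a pentraxin that binds phosphocholine on microbes and damaged membranes, was ordered by diet and not by genotype. It ranged from 12.25 to 12.63 with a median of 12.42 in knockout livers on phenobarbital, and from 11.88 to 12.42 with a median of 11.98 in knockout livers without it. The signals were 12.40, 12.47, 12.43 and 12.36 in wild type on phenobarbital, and 12.20, 12.12, 11.96, 11.94 and 12.04 in wild type without it. The wild-type groups did not overlap. The knockout groups overlapped through replicate 7 of the livers without phenobarbital, at 12.42, while the other 6 lay at 11.88 to 12.20.

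The order of the arrays was shared among the genes. In knockout livers without phenobarbital, replicates 1, 2, 6 and 7 were the 4 highest arrays for 5 of 5 strongly inducible genes and for Orm1 and Hp, but not for Crp and Apcs. In knockout livers on phenobarbital, replicates 3, 4, 5 and 7 were the 4 highest for 4 of 5 strongly inducible genes, Saa3 being the exception, and again for Orm1 and Hp but not for Crp and Apcs. In wild type without phenobarbital, replicate 1 was the highest array for all 9 genes, with Lcn2 3.16 and Saa2 3.39 above the group median on the log2 scale. The gap between the 4 high and the 3 low knockout arrays without phenobarbital was 4.98 for Lcn2, 3.82 for Orm2, 3.81 for Saa3, 3.33 for Saa2 and 1.52 for Saa1. In the knockout on phenobarbital these genes did not share 1 division. The widest gap lay below the 4 highest arrays for Lcn2, at 2.80, and below the 3 highest for Saa3. For Saa1, Saa2 and Orm2 it lay below the 5 highest, with replicate 6 on the high side.

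**Figure D2:**
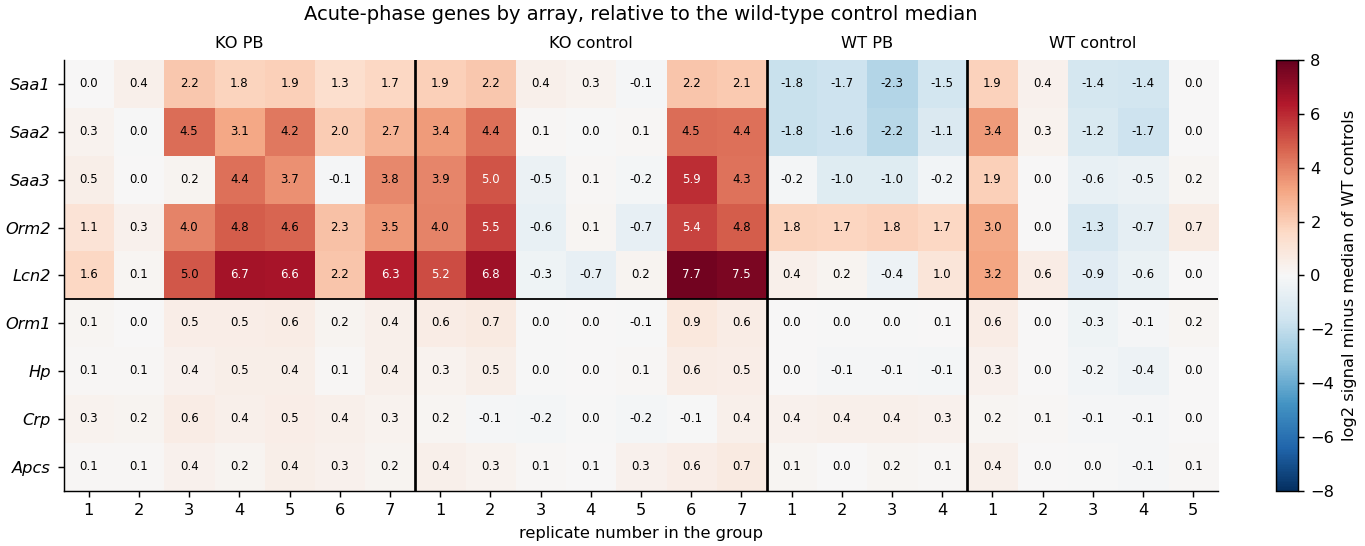
Log2 signal of each gene (rows) on each array (columns, numbered by replicate) minus the median of the 5 wild-type livers without phenobarbital. Red cells are above that median: in the knockout controls, replicates 1, 2, 6 and 7 are red for the 5 genes of the upper block and replicates 3, 4 and 5 are near 0, and Crp in the lower block does not follow this division.

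Spread within a group was larger for the strongly than for the weakly inducible genes, which is a description only, since the grouping was made with these data known. Their SDs were 0.81 to 2.70 for the 5 strongly and 0.14 to 0.22 for the 4 weakly inducible genes in knockout livers on phenobarbital, and 1.03 to 3.87 and 0.20 to 0.39 in knockout livers without it. In wild type without phenobarbital the SDs were 1.01 to 1.98 for the strongly and 0.11 to 0.34 for the weakly inducible genes. In wild type on phenobarbital they were 0.077 to 0.56 and 0.039 to 0.066, with Orm2 as the strongly inducible gene of SD 0.077. The median SD over all genes tested was 0.136 in knockout livers on phenobarbital, 0.160 in knockout livers without it, 0.0937 in wild type on phenobarbital and 0.122 in wild type without it. In wild type without phenobarbital Saa2 had the largest SD of all genes tested, which rested on replicate 1 at 13.07. The highest signals of Orm1, Hp and Apcs were 13.97, 14.50 and 13.75, against 14.79 to 14.92 for any probe set of an array. Whether lying this high on the scale narrowed their SDs was not tested.

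**Figure D3:**
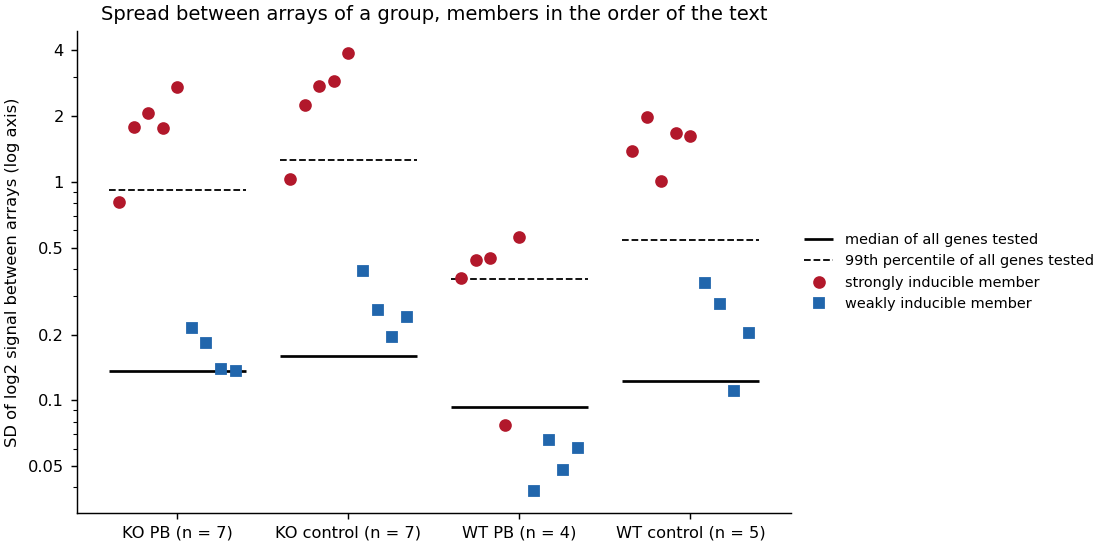
SD of the log2 signal between arrays of a group (vertical log axis) for the 9 genes in the 4 groups, with lines at the median and the 99th percentile of all genes tested. The strongly inducible genes (circles) exceed the weakly inducible ones (squares) in each group, from 1.03 against at most 0.39 in the knockout controls, and lie above the median of all genes except Orm2 in wild type on phenobarbital.

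Likeness between genes is given as Pearson's r over the 23 arrays, as a description only, because the arrays fall into separate sets and share group differences. Lcn2 was most like Orm2 among the 9 genes (r = 0.935), and Saa1 was most like Saa2 (r = 0.964). Crp had r of at most 0.478 with any of the other 8. Outside the 9 genes, Saa1 and Saa2 were most like Hpx, which encodes the haem carrier hemopexin (r = 0.947 with Saa1), and Cyb561 (r = 0.949 with Saa2). Lcn2 was most like Cd44, a hyaluronan receptor of leukocytes (r = 0.953), and Saa3 was most like Pla2g7, the plasma form of platelet-activating factor acetylhydrolase (r = 0.964). Orm2 was most like Rnf135 (r = 0.930), Apcs most like Socs3, a feedback inhibitor of STAT3 signalling (r = 0.893), and Crp most like Slc37a1 (r = 0.868).

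Knockout was first set against wild type under phenobarbital, the comparison with the largest count of called genes among the 9. Saa1 was 8.79-fold higher in the knockout (log2 change 3.14, SE 0.57, limma adjusted p = 0.000622) and Saa2 17-fold higher (log2 change 4.09, SE 1.09, limma adjusted p = 0.0115), and neither overlapped between the groups. These were the 2 of 9 genes that passed an adjusted p of 0.05, and both were higher, against 11.9% of all genes tested that were called higher and 20% called in either direction. Without the 2 arrays of low weight Hp passed too (limma adjusted p = 0.0316), so that 3 of 9 were called. In that fit 2220 of 13778 genes were called higher and 1474 lower. With all arrays Lcn2, with a log2 change of 3.75 (SE 1.62, adjusted p = 0.105), Saa3 with 2.37 (SE 1.17, adjusted p = 0.155) and Hp with 0.37 (SE 0.13, adjusted p = 0.0546) did not pass. Saa1, Saa2, Saa3 and Hp had no overlap between the groups with the knockout higher, which 11.2% of all genes showed. The median change of the 9 genes was 1.20, against 0.0024 over all genes. Crp differed by 0.0079 (95% interval -0.18 to 0.20), and Orm2 by 1.20 (95% interval -1.29 to 3.70). In whole liver, fewer cells of a type and less RNA per cell cannot be told apart, here and in every comparison.

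Without phenobarbital, knockout livers had higher means than wild type for all 9 genes, but 0 of 9 passed the adjusted threshold in limma, against 25% of all genes tested. At an unadjusted p under 0.05, 6 of 9 were higher, namely Saa1, Saa2, Saa3, Lcn2, Hp and Apcs, against 21.1% of all genes tested. The log2 changes were 3.32 for Lcn2 (SE 1.51, limma adjusted p = 0.111), 2.46 for Saa3 (SE 1.09, adjusted p = 0.101), 2.31 for Orm2 (SE 1.12, adjusted p = 0.135), 2.26 for Saa2 (SE 1.02, adjusted p = 0.107) and 1.40 for Saa1 (SE 0.54, adjusted p = 0.060). No gene of the 9 was free of overlap between the groups, which 10.6% of all genes were. Without the 2 arrays of low weight the changes were 1.79 for Lcn2 (limma adjusted p = 0.438), 1.48 for Saa3, 1.33 for Orm2, 1.44 for Saa2 and 1.05 for Saa1 (limma adjusted p = 0.224), that of Crp was -0.06, and 0 of 9 genes passed. In that fit 1284 of 13778 genes were called higher and 784 lower. Without replicate 1 of the wild-type livers, in contrast, 4 of 9 passed in limma: Saa1 (log2 change 1.90, adjusted p = 0.012), Saa2 (3.07, adjusted p = 0.0339), Hp (0.43, adjusted p = 0.0179) and Apcs (0.35, adjusted p = 0.0171). The count was 5 without replicate 3 of the knockout, 4 without replicate 4 and 3 without replicate 5, which are the low arrays of that group. Over all genes, 2667 to 3901 were called when any 1 array was left out, against 3453 with all arrays.

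In the knockout, Crp was the only one of the 9 genes called for phenobarbital. Crp was 1.29-fold higher on phenobarbital (log2 change 0.37, SE 0.077, limma adjusted p = 0.0122), 1 of 9 called, against 2.05% of all genes tested. Without the 2 arrays of low weight the Crp change was 0.43 (limma adjusted p = 0.00187), and in a fit of the knockout groups alone it did not pass (limma adjusted p = 0.0761). The changes of the strongly inducible genes were -0.87 for Saa3, 0.29 for Orm2, 0.28 for Lcn2, 0.046 for Saa1 and -0.01 for Saa2, with 95% intervals as wide as -2.59 to 3.15 for Lcn2. Without the 2 arrays of low weight, both in the group without phenobarbital, these changes were 0.11 for Saa3, 1.28 for Orm2, 1.82 for Lcn2, 0.39 for Saa1 and 0.80 for Saa2 (limma adjusted p from 0.545 to 0.973), so that the sign turned for Saa3 and Saa2. At this spread neither a rise nor a fall of these 5 genes could be resolved.

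In wild type, Crp was again 1.29-fold higher on phenobarbital (log2 change 0.36, SE 0.097, limma adjusted p = 0.0343) and was the 1 of 9 genes called, against 3.85% of all genes tested. The 4 treated and 5 control livers did not overlap, which 6.04% of all genes showed in that direction. That call was lost in 8 of the 23 fits that left out 1 array, namely each of the 4 treated livers and replicates 2 to 5 of the controls, with limma adjusted p from 0.0502 to 0.0972, and with each array centred on its median (limma adjusted p = 0.0522). Saa1 was 3.23-fold lower on phenobarbital (log2 change -1.69, SE 0.61, limma adjusted p = 0.152), which did not pass, and did not overlap either, as 5.56% of all genes did not in that direction. Saa2 had a change of -1.84 (SE 1.17, adjusted p = 0.514) and Orm2 one of 1.41 (SE 1.29, adjusted p = 0.702). Without replicate 1 of the wild-type controls, the Orm2 change was 2.08 (limma adjusted p = 0.546), that of Saa1 was -1.19 (limma adjusted p = 0.343) and that of Saa2 was -1.03 (limma adjusted p = 0.799).

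The interaction asks whether the phenobarbital effect differed between genotypes, taken as the log2 change in knockout minus the log2 change in wild type. It was called for 0 of the 9 genes in limma, against 0.875% of all genes, and 1 of 9 had an unadjusted p under 0.05, against 10.3% of all genes. That gene was Saa1, with an interaction of 1.74 (SE 0.79, limma adjusted p = 0.448). Without the 2 arrays of low weight the interaction was 1.97 for Lcn2, -0.13 for Orm2 and 0.88 for Saa3. With all arrays it was 0.43, -1.11 and -0.09, and none of these passed in either fit (limma adjusted p from 0.769 to 0.992). The Crp interaction was 0.0074, with a 95% interval of -0.25 to 0.26, so that the diet effects on Crp were 0.37 in knockout and 0.36 in wild type. Each group enters 2 of the 4 pairwise comparisons, so that these share their samples.

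**Figure D4:**
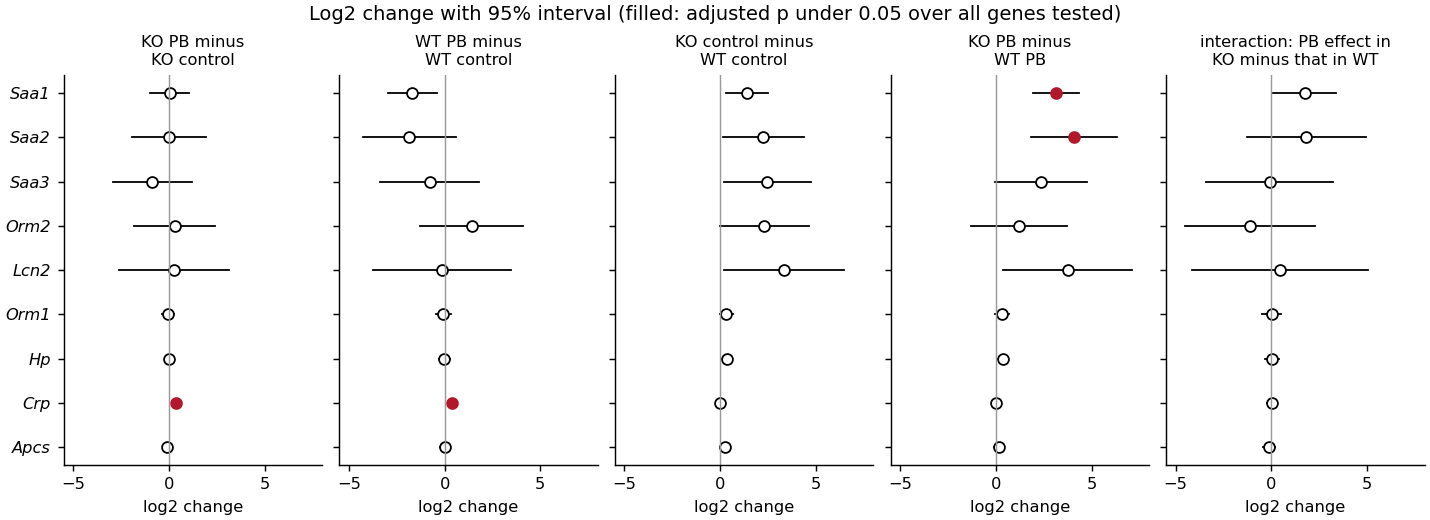
Log2 change (horizontal axis) of the 9 genes in the 4 pairwise comparisons and the interaction, with 95% intervals from limma. Filled circles passed an adjusted p of 0.05 over all genes tested: Crp at 0.37 and 0.36 for the diet, and Saa1 at 3.14 and Saa2 at 4.09 for knockout against wild type under phenobarbital.

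Of the ligands that start the response, Il6, Tnf, Osm, Il11 and Ifng did not pass the filter on low signal, and Il6 lay between 2.33 and 3.46 on all arrays but replicate 7 of the knockout without phenobarbital, at 5.75. Of 6 ligands tested, none was higher and 2 were lower in the knockout under phenobarbital, and 1 was higher and 2 were lower without it. Among all genes, 11.9% were higher and 8.12% lower under phenobarbital, and 14.8% higher and 10.1% lower without it. Il1a, one of the interleukin 1 genes, rose in the knockout without phenobarbital (log2 change 0.96, SE 0.18, limma adjusted p = 0.000577), and its change of 0.53 under phenobarbital passed only when the 2 arrays of low weight were left out (limma adjusted p = 0.0533 with them and 0.0202 without them). Il1b had a change of 1.08 in the knockout without phenobarbital (SE 0.40, limma adjusted p = 0.0529), with signals of 5.43 to 8.83 in these knockout livers against 5.26 to 5.54 in wild type. With the arrays of low weight left out, the knockout signals reached 6.79 and the change was 0.59 (limma adjusted p = 0.133). Clcf1 and Ctf1, cytokines of the interleukin 6 family, were lower in the knockout under both diets. The changes under phenobarbital were -0.44 for Clcf1 and -0.40 for Ctf1 (limma adjusted p = 0.000238 and 0.0183), and those without it were -0.19 and -0.47 (limma adjusted p = 0.048 and 0.00334). The call of Clcf1 without phenobarbital was lost without the 2 arrays of low weight (limma adjusted p = 0.101).

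Among the 14 receptors, all tested, 4 were called higher and 1 lower in the knockout without phenobarbital, against 14.8% and 10.1% of all genes. Under phenobarbital 2 were higher and 2 lower, against 11.9% and 8.12%. When the arrays of low weight were left out, the counts were 2 higher and 1 lower without phenobarbital, and 4 higher and 2 lower under it. Il6ra, the binding chain of the interleukin 6 receptor, had signals of 6.82, 6.52, 6.82 and 6.88 in wild-type livers on phenobarbital, against 7.78, 7.93, 7.99, 7.96 and 7.59 in those without it. It fell on phenobarbital in wild type, by 1.09 on the log2 scale (SE 0.15, limma adjusted p = 9.84e-05), without overlap. In the knockout its change with phenobarbital was -0.45 (SE 0.12, limma adjusted p = 0.0546), or -0.56 without the 2 arrays of low weight (limma adjusted p = 0.0149), and the interaction was 0.64 (SE 0.19, limma adjusted p = 0.159). Under phenobarbital Il6ra was higher in the knockout by 0.59 (SE 0.14, limma adjusted p = 0.00554).

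The shared signalling chain Il6st, known as gp130, was not called in any comparison, with adjusted p from 0.239 to 0.987. Osmr, the oncostatin M receptor, was higher in the knockout by 1.07 under phenobarbital (SE 0.36, limma adjusted p = 0.039) and by 1.37 without it (SE 0.33, limma adjusted p = 0.0057). Lifr, the receptor of leukemia inhibitory factor, was lower by 1.57 under phenobarbital (limma adjusted p = 0.00194) and by 1.56 without it (limma adjusted p = 0.000958). With the arrays of low weight left out, the Osmr change without phenobarbital was 0.88 (limma adjusted p = 0.00704). Osmr lay at 5.93 to 7.41 in knockout and at 5.24 to 5.64 in wild type on phenobarbital, and Lifr at 9.51 to 11.08 against 11.73 to 11.95. Neither overlapped between genotypes under either diet.

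In the knockout without phenobarbital, 14.8% of all genes were called higher than in wild type. Of the 12 transcription factors and kinases tested, 2 were called, both higher in that comparison. They were Cebpd, an inducible C/EBP factor (log2 change 1.16, SE 0.32, limma adjusted p = 0.0113), and Jak1, a kinase bound to gp130 (log2 change 0.44, SE 0.076, limma adjusted p = 0.000345). When the arrays of low weight were left out, Cebpd was higher under both diets, by 0.84 under phenobarbital and by 0.81 without it (limma adjusted p = 0.0243 and 0.0459). Stat3 and Cebpb were not called in any comparison, with log2 changes of -0.21 to 0.29 and 0.0029 to 0.21. Of the 12 inhibitors, Tnfaip3, which restrains NF-kappaB, rose in the knockout without phenobarbital (log2 change 1.86, SE 0.62, limma adjusted p = 0.0332), and Nfkbiz rose in the knockout under phenobarbital (log2 change 0.94, SE 0.32, limma adjusted p = 0.0409). With the arrays of low weight left out, the Tnfaip3 change was 1.68 under phenobarbital (limma adjusted p = 0.00991) and 1.10 without it (limma adjusted p = 0.11). Nfkbiz is an IkappaB family member by sequence but is known to activate some NF-kappaB targets, Lcn2 among them. Socs3 had changes of 0.64 and 0.75 for knockout against wild type under and without phenobarbital (limma adjusted p = 0.355 and 0.219). No transcription factor or inhibitor was called for phenobarbital in either genotype in limma, while 3 and 1 had an unadjusted p under 0.05.

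A list of 27 other positive acute-phase genes had 21 tested. In the knockout 8 of 21 were higher and none lower under phenobarbital, and 10 of 21 were higher and none lower without it, against 11.9% and 14.8% of all genes called higher. The median changes of the list were 0.46 and 0.39, against 0.0024 and -0.0047 over all genes. When the arrays of low weight were left out, 13 of 21 were higher under phenobarbital and 5 of 21 without it, with median changes of 0.46 and 0.27. Over all 13778 genes of that fit, 2220 were higher under phenobarbital and 1284 without it. The largest rises were those of Mt2, a metallothionein that binds zinc (log2 change 3.07, limma adjusted p = 0.00124, and 2.99, limma adjusted p = 0.000732). Fgl1, a fibrinogen-like protein of hepatocytes, was higher under phenobarbital by 1.97 (limma adjusted p = 0.000351), and Cd14, the endotoxin co-receptor, without it by 2.45 (limma adjusted p = 0.0356). Serpina3n, a protease inhibitor, was higher under both diets, by 0.60 under phenobarbital and 0.49 without it (limma adjusted p = 0.0309 and 0.0484). With the arrays of low weight left out, neither Cd14 nor Serpina3n was called without phenobarbital (limma adjusted p = 0.171 and 0.224), while Cd14 was higher under phenobarbital by 2.32 (limma adjusted p = 0.0187). Lbp, the endotoxin-binding protein, was called in no comparison, with adjusted p from 0.174 to 0.992.

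With phenobarbital in wild type, 1 of the 21 rose and 2 fell, against 1.95% and 1.9% of all genes. The one that rose was Orm3, a paralogue of Orm1 and Orm2, at 8.36, 8.49, 8.42 and 8.37 on phenobarbital against 7.20, 6.59, 5.67, 6.23 and 6.34 without it (log2 change 2.0, SE 0.53, limma adjusted p = 0.0339). Its arrays on phenobarbital were as tight as those of Orm2, and its promoter was 86.6% identical to that of Orm2 and held TTGCACAA at -121. In the knockout Orm3 ranged from 6.32 to 8.98 on phenobarbital and from 5.89 to 8.18 without it. Fgl1 fell on phenobarbital in wild type, to 10.21 to 10.58 against 11.09 to 13.04 without it (log2 change -1.56, limma adjusted p = 0.0147). Itih3, a hyaluronan-binding inter-alpha-inhibitor chain, fell in both genotypes, by 0.38 in knockout (limma adjusted p = 0.0244, or 0.0554 without the 2 arrays of low weight) and by 0.61 in wild type (limma adjusted p = 0.00189).

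Of 13 negative acute-phase genes, which the liver makes less of in inflammation, 11 were tested. In the knockout under phenobarbital 1 was higher and none lower, against 11.9% and 8.12% of all genes. Without phenobarbital 2 were higher and 2 lower, against 14.8% and 10.1%. The counts were 2 higher and 1 lower under each diet when the 2 arrays of low weight were left out. Ahsg, which encodes fetuin-A, was higher in the knockout by 0.46 (limma adjusted p = 1.33e-05) and 0.20 (limma adjusted p = 0.0129), and Serpina7, the thyroxine-binding globulin, was lower without phenobarbital by 2.62 (limma adjusted p = 0.0052). The median changes, 0.052 and 0.036, were near those of all genes. On phenobarbital Itih2 fell by 0.31 in knockout (limma adjusted p = 0.0346) and by 0.40 in wild type (limma adjusted p = 0.016), and Ahsg fell by 0.35 in wild type (limma adjusted p = 0.0021).

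In the knockout without phenobarbital, the means of macrophage, neutrophil, lymphocyte, and stellate and endothelial markers were lowest on the arrays low for Lcn2. The same held for S100a8. For stellate and endothelial markers the gap was narrow, with 7.576 in replicate 3 against 7.580 in replicate 1. Adipocyte and cholangiocyte means were not ordered in that way. In the knockout on phenobarbital, lymphocyte and stellate and endothelial means did not follow the division of Lcn2 either. Replicate 1, low for Lcn2, had a lymphocyte mean of 5.41, against 5.10 in replicate 3, high for Lcn2. The stellate and endothelial means of these replicates were 7.438 and 7.436. Of 16 macrophage and Kupffer cell markers, all tested, 9 were higher and none lower in the knockout under each diet. Among all genes, 11.9% were called higher under phenobarbital and 14.8% without it. No marker was called for phenobarbital in limma, with 1 unadjusted p under 0.05 in wild type and none in knockout. When the arrays of low weight were left out, 2220 of 13778 genes were higher under phenobarbital and 1284 without it. Of the 16 markers, 11 were then higher under phenobarbital and 4 without it. Their mean log2 signal was 6.46 to 8.11 in knockout livers on phenobarbital, 6.52 to 8.56 in knockout livers without it, 5.92 to 6.10 in wild type on phenobarbital and 6.07 to 6.48 in wild type without it. In the knockout without phenobarbital it was 7.94, 8.22, 6.52, 6.63, 6.66, 8.56 and 7.95 in replicates 1 to 7, with replicates 3, 4 and 5 lowest, as for Lcn2. In the knockout on phenobarbital it was 7.10, 6.46, 7.35, 7.91, 8.11, 6.68 and 8.0 in replicates 1 to 7, with replicates 1, 2 and 6 lowest, again as for Lcn2. Among the wild-type controls it was highest in replicate 1, at 6.48. The part of these cells in the acute-phase signals was not tested.

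Neutrophils carry lipocalin 2 in their granules, and 8 of 14 neutrophil markers were tested. Mpo, Cxcr2 and Mmp8 did not pass the filter, and the other 3 were not analysed here. In the knockout 1 of 8 was called higher under phenobarbital and 2 of 8 without it, against 11.9% and 14.8% of all genes, and none was lower. The mean of the list was 5.28 to 5.78 in knockout livers on phenobarbital, 5.46 to 6.72 in knockout livers without it, 5.11 to 5.28 in wild type on phenobarbital and 5.13 to 5.27 in wild type without it. Without phenobarbital S100a8 and S100a9, which encode the subunits of calprotectin, were higher in the knockout by 2.69 and 2.01 (limma adjusted p = 0.000736 and 0.000315), and S100a9 by 1.07 under phenobarbital (limma adjusted p = 0.0473). With the arrays of low weight left out, the changes without phenobarbital were 2.04 for S100a8 and 1.52 for S100a9 (limma adjusted p = 0.00201 and 0.000244). S100a8 ranged from 4.75 to 7.16 in knockout livers on phenobarbital, where Lcn2 reached 12.37. The mean of the list was lowest there in replicates 2, 6 and 7. S100a8 was 5.16, 4.75, 5.61, 6.34, 7.16, 5.46 and 5.73 in replicates 1 to 7 of that group, lowest in replicates 1, 2 and 6, as for Lcn2. Without phenobarbital it was 7.75, 7.63, 5.66, 6.08, 5.92, 8.31 and 9.43 in knockout replicates 1 to 7, again lowest in replicates 3, 4 and 5. The part of neutrophils in the Lcn2 signal was not tested.

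Of all genes tested, 11.9% were called higher and 8.12% lower in the knockout under phenobarbital, and 14.8% higher and 10.1% lower without it. Of 11 stellate and endothelial markers, 6 were higher in the knockout under phenobarbital and 8 without it, and none was lower. Their mean was 7.07 to 7.82 in knockout livers on phenobarbital, 7.41 to 8.51 in knockout livers without it, 6.61 to 6.93 in wild type on phenobarbital and 6.63 to 6.89 in wild type without it. Fat cells can make Saa3, and of 7 adipocyte markers Adipoq, Lep and Cidec did not pass the filter on low signal and 2, Fabp4 and Retn, were tested. The mean of these 2 was 6.48 to 6.87 in knockout livers on phenobarbital, 6.65 to 8.07 in knockout livers without it, 6.31 to 6.54 in wild type on phenobarbital and 6.27 to 6.46 in wild type without it, so that the groups without phenobarbital did not overlap. It was highest in replicate 4 of the knockout without phenobarbital, which was low for Lcn2. The part of fat cells in the Saa3 signal was not tested. Fabp4, which endothelial cells and macrophages also express, was higher in the knockout without phenobarbital by 1.67 (limma adjusted p = 0.000112) and fell on phenobarbital in the knockout by 0.96 (limma adjusted p = 0.0372, or 0.0983 without the 2 arrays of low weight). Of 7 lymphocyte markers tested, 2 were higher in the knockout under phenobarbital, and 2 were higher and 1 lower without it, or 3, 1 and 1 with the 2 arrays of low weight left out. Their mean was 4.90 to 5.68 in knockout livers on phenobarbital, 4.98 to 5.58 in knockout livers without it, 4.82 to 4.84 in wild type on phenobarbital and 4.77 to 4.91 in wild type without it. Of 4 cholangiocyte markers tested, 1 was higher in the knockout under phenobarbital and 2 without it, or 2 and none with those arrays left out. The cholangiocyte mean was 5.54 to 6.07 in knockout livers on phenobarbital, 5.58 to 6.2 in knockout livers without it, 5.33 to 5.48 in wild type on phenobarbital and 5.37 to 5.60 in wild type without it. In the knockout without phenobarbital it was 5.73 in replicate 1, high for Lcn2, against 5.76 and 5.75 in replicates 3 and 5, low for Lcn2. The mean of 8 hepatocyte markers lay between 13.24 and 13.47 on all arrays. None of the 8 was called between genotypes in limma, with 3 unadjusted p under 0.05 under phenobarbital and none without it. With phenobarbital in wild type 1 of the 8 was called lower, against 1.9% of all genes. It was Cps1, lower by 0.19 (limma adjusted p = 0.0204). Between genotypes, Alb and Cps1 were called under phenobarbital without those arrays, with changes of 0.089 and 0.11 (limma adjusted p = 0.0474 and 0.0398). The Cps1 change with phenobarbital in the knockout was -0.093 (limma adjusted p = 0.228), or -0.13 without those arrays (limma adjusted p = 0.0495).

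**Figure D5:**
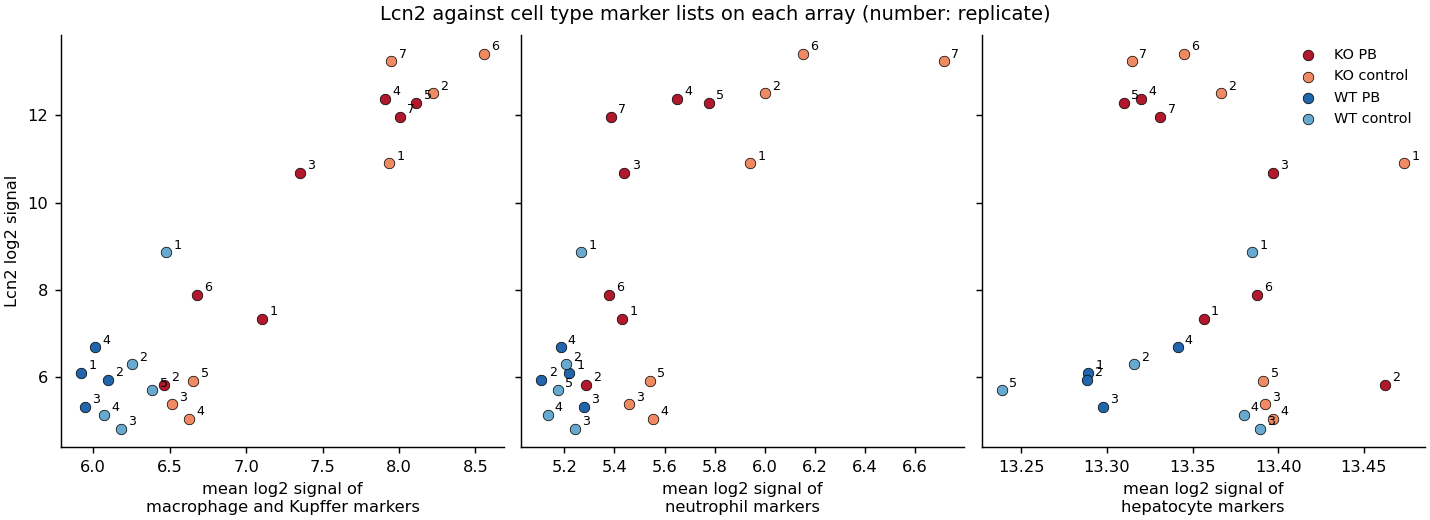
Lcn2 log2 signal (vertical axis) against the mean log2 signal of macrophage, neutrophil and hepatocyte markers (horizontal axes, 1 panel each) on the 23 arrays, with a point per array, coloured by group and numbered by replicate. The macrophage means reach 8.56 in knockout arrays, where Lcn2 reaches 13.41, and stay at or below 6.48 in wild-type arrays, where Lcn2 reaches 8.86, while the hepatocyte means span 13.24 to 13.47 over all arrays.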

How the data were processed

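The authors deposited a log2 signal for each probe set, made with RMA in the R package affy, per the submitters' processing notes, and were used as deposited. Of 45037 probe sets, 34945 were assigned to 1 gene in the platform annotation, 932 to several and 9160 to none. Symbols were updated through Entrez identifiers for 34741. Each gene was represented by its probe set with the highest mean. Genes above the 40th percentile of an array in at least 4 arrays were tested, 13826 of 18193. With limma 3.58.1 (R 4.3.3), group means were estimated from the 23 arrays together, and 5 two-sided comparisons were adjusted by Benjamini-Hochberg over all genes tested. The fit was tested on simulated data. A gene was called at an adjusted p under 0.05, and fold changes are powers of 2 of the log2 change. The number of arrays limits the precision. Promoters were RefSeq sequences, searched for motifs on both strands and aligned with Biopython 1.88.

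Named genes were the 9 members, up to 3 called genes with the largest change per list and comparison, a fixed set of pathway genes and the 3 genes most alike per member. Members and lists were chosen with earlier results of these data known. Alternatives changed the filter, normalization, probe sets, prior, array weights, groups in the fit and replicate block, or left out arrays. Software versions, dates and scan batches were not given in the sources used here. Genes of the lists without a probe set of their own were not analysed here.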

Additional observations from a re-analysis of the deposited data

How the results depend on the processing

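Over 1521 log2 changes of the 9 genes under alternative settings, 1470 kept their direction or moved by no more than their standard error on the same side of the threshold, 12 lost the call, 35 gained it and 4 moved further. The sign changed in 112, none of them called. In knockout against wild type without phenobarbital, the count of members called, 0, was 1 with a filter at the 60th percentile (Hp, limma adjusted p = 0.0469), with quantile normalization (Apcs, limma adjusted p = 0.0372) and with a trended prior (Hp, limma adjusted p = 0.0495), and 0 to 5 when 1 array was left out. Under phenobarbital the count of 2 was 4 with array weights, 1 with the replicate block (Saa2, limma adjusted p = 0.0701), 5 with only the groups compared and 2 to 3 with 1 array left out. For phenobarbital in wild type the count of 1 was 0 with median centring (Crp, limma adjusted p = 0.0522), 0 with the replicate block (Crp, limma adjusted p = 0.0901), 2 with array weights (Saa1 too, limma adjusted p = 0.0215) and 0 to 1 with 1 array left out. For phenobarbital in knockout the count of 1 was 0 with only the groups compared and 1 in each fit with 1 array left out, and the interaction stayed at 0 in every setting. The causes were not tested.

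Counts over all genes, in the order phenobarbital in knockout, phenobarbital in wild type, knockout against wild type without and under phenobarbital, and interaction, were 284, 532, 3453, 2772 and 121. With every probe set tested they were 696, 923, 5444, 4410 and 247, where more features were tested. Array weights gave 461 for phenobarbital in knockout, 1503 in wild type, 4574 for knockout against wild type under phenobarbital and 323 for the interaction. The replicate block gave 1967 for knockout against wild type without phenobarbital and 1606 under it. Only the groups compared gave 100, 929 and, without phenobarbital, 2078. With 1 array left out the ranges were 157 to 409, 308 to 666, 2667 to 3901, 1798 to 3288 and 61 to 146. Leaving out the 2 knockout control arrays of weight under 0.5, an alternative chosen after seeing the data, gave 2068 for knockout against wild type without phenobarbital. Deviations of same-numbered arrays correlated from -0.695 to 0.628. Since the knockout arrays fall into high and low sets, this cannot show whether replicate numbers pair the samples. The main fit used no pairing. Signals near the top or bottom of the array scale limit what Hp, Saa1, Saa2, Orm1, Apcs and the ligands can show.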
